A study of Drosophila melanogaster with 6 samples.

Results

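Glycolysis was examined through 10 genes, from hexokinase to pyruvate kinase, taken by name from a table of 14862 genes: Hex-A, Pgi, Pfk, Ald, Tpi, Gapdh1, Gapdh2, Pgk, Eno and PyK. All 10 were listed, and aldolase appeared under its older symbol Ald. They cover 9 of the 10 steps of the pathway, and step 6 is represented by a pair of genes. RNA was sequenced from *Drosophila melanogaster* stage 14 oocytes, the mature oocytes of the fly, in pools of 200. The 3 control samples carried the genotype label GFP control and the 3 others the label InR-DN, a form of the insulin receptor with which the submitters suppress insulin signalling. The sources used here do not give the driver of the transgene, the age of the mothers or the number of crosses. The spread between these samples may thus be technical, and the p-values rest on the authors' model of it. The labels of the InR-DN samples use the word progeny without explaining it. All flies had food with yeast paste, and all RNA is labelled as polyA selected although the kit named is one for stranded total RNA.

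Only the authors' comparison of the groups was analysed. For each gene it gives the average log2 CPM (reads scaled to library size), the log2 fold change, and a likelihood ratio with its p-value. Values of single samples were not analysed here, so depth, replicate spread and overlap between the groups are unknown for every gene. Which group is the numerator is not stated in it, its title speaks of embryos, and the libraries behind the average are not stated. Each sign is therefore printed as deposited and tied to neither genotype. Each gene's fold change and likelihood ratio imply an SE, from which the 95% intervals given here were taken. They rest on the authors' model.

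Glycolysis splits glucose into pyruvate and yields ATP and NADH. Its early steps spend ATP to phosphorylate and split the sugar, and its later steps recover ATP while oxidising the fragments. Insulin signalling is known to promote glucose uptake and glycolysis in many animal tissues. In the fly ovary, mRNA made in the nurse cells is loaded into the oocyte, which later supports the early embryo before its own genes are switched on.

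None of the 10 glycolytic genes passed the authors' likelihood ratio test for a difference between the groups. At their adjusted p of 0.05 no member was called, in either direction, and 0 of 10 reached an unadjusted p of 0.05. Across all 13080 genes with a likelihood ratio above 0, called the tested genes here, 5.1% were called, 2.61% with positive and 2.48% with negative fold changes, and the unadjusted p was under 0.05 for 11.4%. Among the 3408 tested genes in the range of average log2 CPM spanned by the glycolytic genes, the share called was 0.851% and the share with an unadjusted p under 0.05 was 2.61%, so 0 of 10 is near the share at that abundance. The median log2 fold change of the 10 was -0.06, against 0.03 over all tested genes and 0.03 over those of the same range. In bulk RNA of pooled oocytes, fewer cells of a type and less RNA per cell cannot be told apart.

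**Figure D1:**
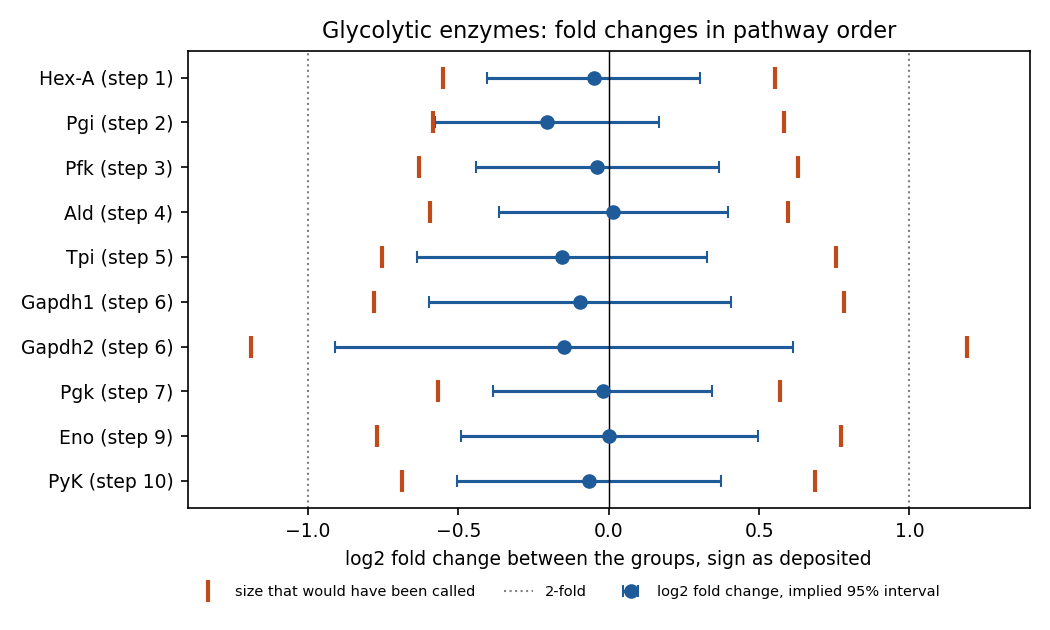
Log2 fold change of each glycolytic gene (x axis, sign as deposited) in pathway order (y axis), with points for the authors' values, bars for the implied 95% interval, orange marks for the size that would have been called and dotted lines at a 2-fold change. All 10 bars cross 0 and lie inside the dotted lines, and the bar of Gapdh2 is the longest.

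The early, ATP-consuming part of the pathway begins with Hex-A, the hexokinase that traps glucose as its phosphate, which had a log2 fold change of -0.05 per the authors' deposited table (implied SE 0.18, 95% interval -0.40 to 0.30). Pgi, the isomerase that turns glucose phosphate into fructose phosphate, was at -0.21 per the authors' deposited table (implied SE 0.19, interval -0.58 to 0.17). That was the fold change farthest from 0 among the 10, and its unadjusted p of 0.28 was their lowest. The adjusted p of Pgi from the likelihood ratio test was 0.95 per the authors' deposited table, and those of the other 9 were 1. Pfk, the phosphofructokinase that commits the sugar to glycolysis and is its classical control point, was at -0.04 per the authors' deposited table (implied SE 0.21, interval -0.44 to 0.37). Neither end of its interval reached a 1.5-fold change. Ald, the aldolase that cleaves the sugar, was at 0.02 per the authors' deposited table (implied SE 0.19, interval -0.37 to 0.40). Tpi, which interconverts the fragments so that both can be used, was at -0.16 per the authors' deposited table (implied SE 0.25, interval -0.64 to 0.33).

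The later part of the pathway oxidises and rearranges those fragments. Gapdh1 and Gapdh2 encode the dehydrogenase that makes NADH, and they had log2 fold changes of -0.10 and -0.15 per the authors' deposited table. Their implied SE were 0.26 and 0.39, and the interval of Gapdh2, from -0.91 to 0.61, was the widest of the 10. The interval of Gapdh1 ran from -0.60 to 0.40 and held the value of Gapdh2. Pgk, the kinase of the first step that returns ATP, was at -0.02 per the authors' deposited table (implied SE 0.19, interval -0.38 to 0.34). Eno, the enolase, was at 0.00 per the authors' deposited table, the value nearest to 0 (implied SE 0.25, interval -0.49 to 0.50). PyK, the pyruvate kinase that closes the pathway with a second gain of ATP, was at -0.07 per the authors' deposited table (implied SE 0.22, interval -0.51 to 0.37).

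The intervals limit how large a change could have gone unseen. All 10 intervals stayed inside a 2-fold change, up or down, as did 3236 of 3405 among tested genes in the same range of abundance and 54.1% of those of all tested genes. With a bound of 1.5-fold, 7 of 10 lay within it, and Tpi, Gapdh1 and Gapdh2 did not, each passing it on the negative side and Gapdh2 on both. In the same range 58.3% of genes met the 1.5-fold bound. The median likelihood ratio there was 0.126, against 0.455 for the distribution behind the authors' p-values. The implied SE may thus be too large in this range and the intervals wider than 95% ones, which was not tested. The smallest likelihood ratio of any called gene was 9.37, and with it the size of log2 fold change that would have been called was computed from each implied SE. It was lowest for Hex-A, at 0.55, and highest for Gapdh2, at 1.19, with a median of 0.66. As ratios these are a 1.47-fold change for Hex-A and a 2.28-fold change for Gapdh2. Smaller estimates for these mRNAs would not have been called by this test. How often a true change of a given size would be called was not computed.

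The fold changes were close to each other. Their SD across the 10 genes was 0.07, while their median implied SE was 0.22. Each lay within 1 implied SE of their common median, as 87.9% of tested genes in the same range of abundance did of theirs. Of the 10 fold changes, 8 were negative and 2 positive, those of Ald and Eno. Negative values made up 44.1% of all tested genes and 39.0% of those in the same range of abundance. Subtraction of the median of all tested genes, 0.03, turned Ald and Eno negative too, at -0.02 and -0.03, and by its construction made 50.0% of all tested genes negative. Whether the genes moved together across samples was not tested, because values per sample are needed for it. In size, 4 of the 10 fold changes exceeded the median of 0.08 for tested genes in the range.

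**Figure D2:**
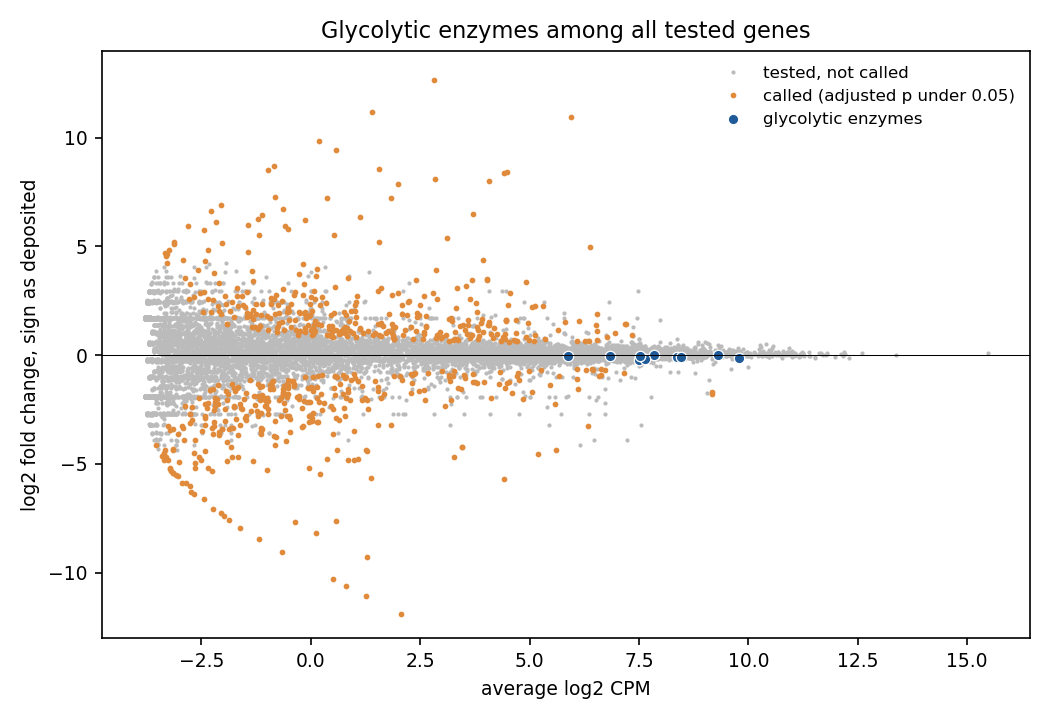
Log2 fold change (y axis, sign as deposited) against average log2 CPM (x axis) for the 13080 tested genes, in grey where not called and orange where called, with the 10 glycolytic genes in blue. The blue points lie on the narrow right-hand part of the cloud between average log2 CPM of 5.88 and 9.79, where 29 of 3408 tested genes were called.

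Glycolytic mRNAs were abundant in the averages. The lowest average log2 CPM was 5.88, for Pfk, and the highest 9.79, for Gapdh2, per the authors' deposited table. Gapdh2 ranked 157 among the 13080 tested genes by that average and Eno ranked 217, while Hex-A ranked 1923 and Pfk 3564. These ranks compare reads per gene and are not corrected for length.

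Per kilobase of coding length, the order ran from the dehydrogenase of the middle of the pathway down to the committing kinase. Gapdh2 was at 888 average CPM per kb, Eno at 422 and Gapdh1 at 333.8. PyK followed at 221, Ald at 210, Tpi at 190 and Pgk at 148 average CPM per kb. Lowest on this length were Pgi at 109, Hex-A at 71.0 and Pfk at 20.7 average CPM per kb. Gapdh2 thus stood 42.9 times above Pfk on this scale. No spread over samples is available for these levels, so it is not known which neighbours in the order differ beyond it. With the union of annotated exons as the length, 6 of the 10 ranks changed, among them that of Ald from 5 to 8, which put it below Pgi, whose rank went from 8 to 7. Gapdh2 stayed first, PyK ranked 4, Hex-A 9 and Pfk 10 on both lengths.

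At most steps with several listed isozymes, 1 gene held nearly all of the average CPM per kb of coding length. At the hexokinase step 99.5% came from Hex-A, against 0.409% from Hex-C, a second hexokinase gene. At the last step 99.7% came from PyK, and its paralogues CG7069, CG7362, CG11249, CG12229 and CG2964 each gave at most 0.135%. At the phosphoglycerate kinase step Pgk held 97.8%, and its paralogue CG9961 held 2.22%. Step 8 has no gene among the 10, and there the mutase gene Pglym78 held 97.7% and CG7059 2.27%. The dehydrogenase step was divided more evenly, with 72.7% from Gapdh2 and 27.3% from Gapdh1, a ratio of 2.66. Reads that match both Gapdh genes could be split between them by the authors' counting, which is not described, so this ratio is uncertain.

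**Figure D3:**
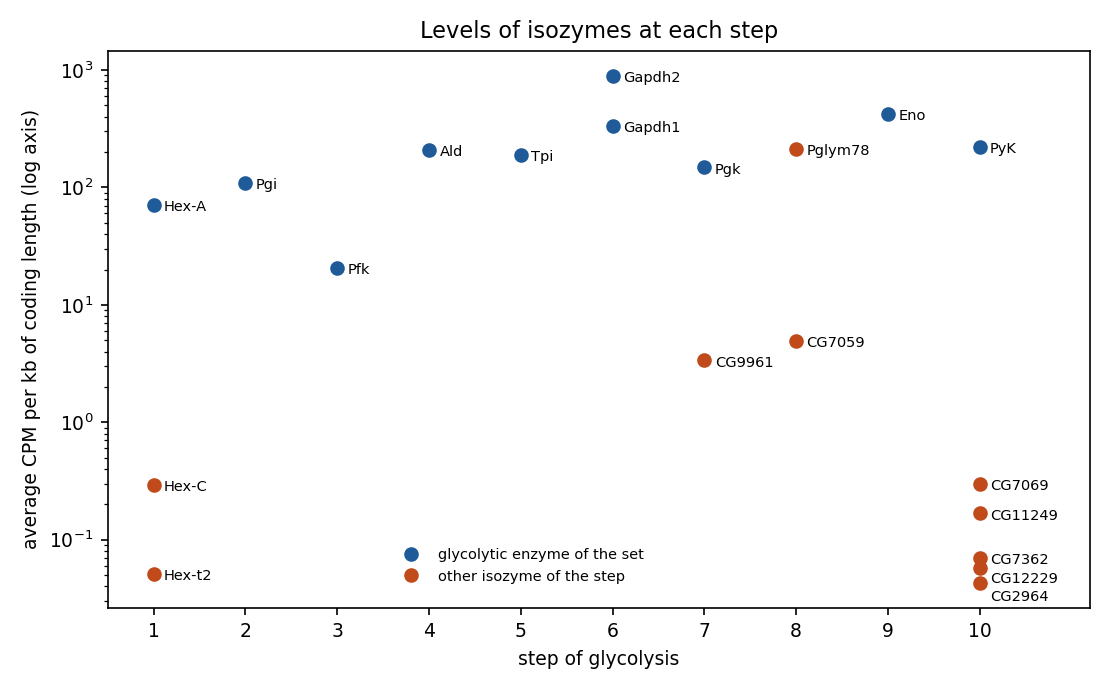
Average CPM per kilobase of coding length (y axis, log scale) for each listed isozyme at each step of glycolysis (x axis), with the 10 genes in blue and their other isozymes in orange. Each blue point lies above 20 and each orange point other than Pglym78 below 5.

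The other isozymes gave no called gene either, and the fold changes of the 8 tested all lay farther from 0 than any member's. The implied SE of 4 of the 8 was larger than any member's, while that of Pglym78 was within the members' range. Of 14 in the list, 10 were listed, 8 were tested, 0 were called by the likelihood ratio test and the unadjusted p was under 0.05 for 2. That is 25% of the 8, against 11.4% of all tested genes. The share was 28.6% at an average log2 CPM from 0 up to 2 and 18.1% from 2 up to 4. The 8 had a median average log2 CPM of -0.96, below both spans, and the share among tested genes below 0 was not computed. Pglym78, whose average lay in the members' range, had a log2 fold change of -0.32 per the authors' deposited table (implied SE 0.21, adjusted p of 0.77 by the likelihood ratio test). Hex-C was at -0.89 and CG9961 at -0.90 per the authors' deposited table, and the implied SE were 0.35 and 0.37. Their adjusted p by the likelihood ratio test were 0.17 and 0.22 per the authors' deposited table. Hex-C lay at an average log2 CPM of -1.33 and CG9961 at 2.18 per the authors' deposited table, far below Hex-A and Pgk. CG7059 was at -0.44, and the pyruvate kinase paralogues CG7069, CG7362, CG12229 and CG11249 were at 0.22, 0.61, 1.04 and 1.71 per the authors' deposited table. The implied SE of the last was 1.21. Hex-t2 and CG2964 had a likelihood ratio of 0 and average log2 CPM of -3.74 and -3.80 per the authors' deposited table, near the lowest value it holds.

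The genes around glycolysis held 1 called gene. Of 59 genes in 6 lists, the isozymes included, 53 were listed, 50 were tested, 1 was called and the unadjusted p was under 0.05 for 4. These are 2% and 8% of those tested, against 5.1% and 11.4% over all tested genes. Their median log2 fold change was 0.01. All 25 with an average log2 CPM of 5 or more had intervals within a 2-fold change and for none was the unadjusted p under 0.05. The 1 called gene was CG9396, of the mitochondrial pyruvate carrier family, at a log2 fold change of -1.31 per the authors' deposited table (implied SE 0.39, adjusted p of 0.018 by the likelihood ratio test). Its average log2 CPM was -1.20 per the authors' deposited table, a low value. The carrier family genes Mpc1 and CG9399, with higher averages, were at 0.02 and 0.10 per the authors' deposited table.

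Fates of pyruvate and the glycerol phosphate shuttle, which reoxidises NADH, were covered by 15 tested genes, with 0 positive calls and CG9396 as the 1 negative call. The most abundant were Gpdh, the glycerol phosphate dehydrogenase, and l(1)G0334, a subunit of pyruvate dehydrogenase, at -0.09 and -0.06 per the authors' deposited table. ImpL3, the lactate dehydrogenase, was at -0.14 with an average log2 CPM of 2.76 per the authors' deposited table. Of 6 genes of flux control and gluconeogenesis 0 were called and 0 reached an unadjusted p of 0.05, and 5 had positive fold changes. Among them Pepck, which makes phosphoenolpyruvate from oxaloacetate, was at 0.20 and CG1516, the pyruvate carboxylase, at 0.10 per the authors' deposited table. Pfrx and fbp, which encode the enzyme that sets the level of an activator of phosphofructokinase and the phosphatase that opposes it, were at 0.23 and -0.36 per the authors' deposited table. Neither had an unadjusted p under 0.05.

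The pentose phosphate pathway, which branches from glucose phosphate, had 7 tested genes, 0 calls and intervals that all lay within a 2-fold change. Its most abundant genes, the transketolase CG8036 and the transaldolase Tal, were at -0.07 and -0.08 per the authors' deposited table. Of 6 tested sugar transporter genes 0 were called, and sut2 had an unadjusted p of 0.0061 with a log2 fold change of 2.30 per the authors' deposited table (implied SE 0.84, adjusted p of 0.11 by the likelihood ratio test). The abundant transporters sut1 and Glut1 were at 0.05 and -0.11 per the authors' deposited table. Of 8 regulators of sugar metabolism, 0 were called and the unadjusted p was under 0.05 for 0. The most abundant were dm, the fly Myc, at 0.07 and Mio, a glucose-responsive transcription factor also known as Mondo, at 0.30 per the authors' deposited table. The fly HIF gene sima was at 0.20 and ERR, which drives glycolytic genes in fly embryos and larvae, at -0.29 per the authors' deposited table.

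**Figure D4:**
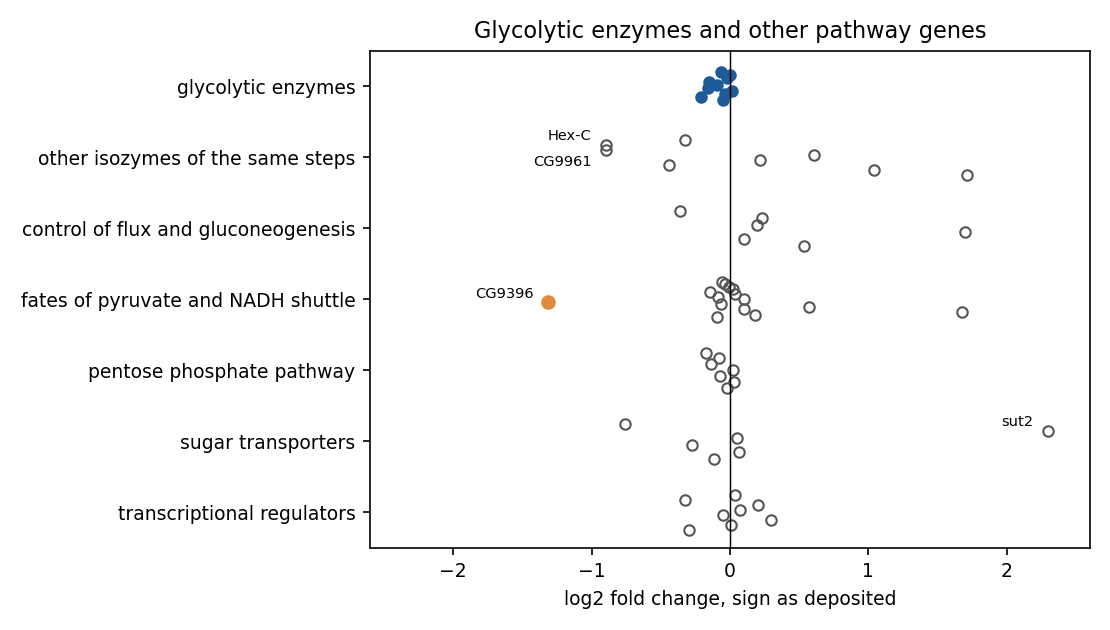
Log2 fold change (x axis, sign as deposited) of each tested gene in the glycolytic set (blue) and in the 6 other lists (open circles), with the called gene filled in orange and genes of unadjusted p under 0.05 named. The glycolytic genes lie between -0.21 and 0.02, while the other lists reach from -1.31 to 2.30.

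Oocyte RNA was present in the averages, since osk, a germ plasm determinant, had an average log2 CPM of 9.76 and a log2 fold change of 0.09 per the authors' deposited table. Eggshell mRNA of the follicle cells was present too, with Cp15 at an average log2 CPM of 12.31 per the authors' deposited table, and of 6 eggshell markers 0 were called and 0 reached an unadjusted p of 0.05. All 6 gut markers, a list taken with earlier results of these data known, were called at positive fold changes. Other genes of the same families, LysX, etaTry and lambdaTry among them, were called at negative fold changes per the authors' deposited table. The most abundant of the 6, alphaTry, had an average log2 CPM of 3.93 per the authors' deposited table, below all 10 glycolytic genes. Of 4 fat body markers 2 were called, both positive, with Lsp2 the most abundant at an average of -0.28 per the authors' deposited table. Over all tested genes 5.1% were called, and the unadjusted p of the likelihood ratio test was under 0.05 for 11.4%. Muscle, a tissue rich in glycolytic enzymes, had 0 of 7 markers called, 1 with an unadjusted p under 0.05 and a median log2 fold change of 0.41. Tm1 was the most abundant of the 7, at an average log2 CPM of 9.05. Its log2 fold change was 0.13 per the authors' deposited table. The median average of the 7 was 1.29, with Act57B at 4.76 and the flight muscle actin gene Act88F at -3.05. The level of Tm1 therefore does not stand for the muscle list. Of 3 tested male germline markers 0 were called and 1 had an unadjusted p under 0.05. S-Lap1 was the most abundant, at an average of 4.77 per the authors' deposited table, and the implied SE of its fold change was 1.56. The averages of betaTub85D and Mst87F were low, at -1.53 and -3.23. The part of these tissues in the values of the glycolytic genes was not tested.

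In the reference annotation, 7 of the 10 genes share no exon with another gene. On the opposite strand, Pgk overlaps Cwc25, Eno overlaps Rrp40, and Ald overlaps the antisense RNA gene CR44321. Cwc25 was at 0.18, Rrp40 at 0.17 and CR44321 at -0.21 per the authors' deposited table, with unadjusted p of 0.52, 0.63 and 0.73. Whether the authors counted by strand is not given in the sources used here, so reads from the overlapping stretches of these pairs cannot be told apart. Hex-A and Gapdh2 lie on the X chromosome, Pgk and Eno on arm 2L, Pgi, Pfk and Gapdh1 on arm 2R, and Ald, Tpi and PyK on arm 3R.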

How the data were processed

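RNA of 3 GFP control and 3 InR-DN pools was sequenced. Reads were handled with TopHat, Bowtie and FastQC, per the submitters' processing notes, and the versions, the build and the read counter were not given in the sources used here. Per the file headers, the authors deposited log2 fold changes, average log2 CPM, a likelihood ratio score, p-values and adjusted p-values per gene. The file's name holds that of a likelihood ratio test on generalised linear models. The deposited p-values matched the chi-square tail with 1 degree of freedom to within 6.4e-15, and the adjusted ones a Benjamini-Hochberg adjustment over all 14862 genes to within 3.6e-15. A likelihood ratio of 0 was listed for 1782 genes, which were left out of shares.

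From these, the implied SE (log2 fold change over the square root of the likelihood ratio, where that exceeded 1e-06) and intervals were computed. Simulated fold changes drawn with those same SE checked the arithmetic only. Whether such SE and intervals hold for counts under the authors' model was not tested. Counts were foreseen as a possible format, and the authors' test was used because no counts were given. Coding length is the longest annotated one in Ensembl release 115 (BDGP6), used for lengths, overlaps and chromosome arms only. List genes were matched by symbol or RefSeq synonym, and 6 pathway genes were not matched. Members and lists were chosen with earlier results of these data known. The rule for names took all 10 members, tested isozymes, and in each other list genes called or with an unadjusted p under 0.05 and the 2 most abundant. The genes Mpc1, CG9399, ImpL3, Pfrx, fbp, sima, ERR, Act88F, Mst87F, LysX, etaTry, lambdaTry and those overlapping a member were added after values were seen. Genes of like pattern could not be sought without values per sample. Computation used scipy 1.17.1, numpy 2.4.6 and pandas 2.3.3 under Python 3.11.15, with figures from matplotlib 3.10.9.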

Additional observations from a re-analysis of the deposited data

How the results depend on the processing

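The count of 0 called glycolytic genes was the same with an adjusted p of 0.01, with adjustment over tested genes alone, without genes whose average log2 CPM was below 0, with an unadjusted p of 0.05 and, chosen after seeing the data, with adjustment over genes of the members' own range of abundance. Their median log2 fold change lay between -0.09 and -0.06 under the centrings and as a mean weighted by implied SE. Centred on all tested genes, Ald was at -0.017 and Eno at -0.031, both positive as deposited and neither called. With a 99% interval 9 of 10 lay within a 2-fold change. The 1 call among the other pathway genes, CG9396, depended on the settings, with 0 calls at an adjusted p of 0.01, 0 without genes whose average log2 CPM was below 0, 0 within the members' range of abundance and 4 at an unadjusted p of 0.05. Both filters on abundance remove CG9396. Leaving out replicates, other normalizations and a replicate block were not run. No paired analysis was possible because the deposited table has no values per sample. Depth is unknown, and estimated log2 fold changes below the sizes given for each gene would not have been called.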

Other observations

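Among the 3408 tested genes in the glycolytic genes' range of average log2 CPM, the median likelihood ratio was 0.126, and that of the 10 glycolytic genes was 0.0808. The median of a chi-square distribution with 1 degree of freedom, against which the authors' p-values were taken, is 0.455. Unadjusted p under 0.05 made up 2.61% of genes in the range, against 28.6% of the 1089 tested genes with an average log2 CPM from 0 up to 2. The cause was not tested.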
